A study of Mus musculus with 3 samples.

Results

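The genes described here carry the names of nuclear subunits of the 5 complexes of oxidative phosphorylation. They were chosen by name alone: protein-coding genes outside the mitochondrial chromosome with symbols that begin Ndufa, Ndufb, Ndufc, Ndufs or Ndufv (complex I), Sdha to Sdhd (complex II), Uqcr (complex III), Cox4 to Cox8 (complex IV) or Atp5 (complex V), without the Ndufaf assembly factors. The rule found 88 genes, and 86 of them had a row with a value for all 3 libraries, out of 36835 genes with such a row. Cox4nb and Atp5sl fit the rule by name but are not known as subunits and were kept apart, which left 85 genes: 39 of complex I, 4 of complex II, 8 of complex III, 17 of complex IV and 17 of complex V. Complexes were assigned by symbol alone, so the 85 can hold genes that are not accepted subunits. The 17 of complex V include Atp5l-ps1, which is named as a pseudogene of Atp5l but annotated as protein-coding. Cox4i1, the main isoform of cytochrome c oxidase subunit 4, and its neighbour Cox4nb had no row with 3 values and are not analysed here.

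Complexes I and II pass electrons from NADH and succinate to ubiquinone, complex III passes them on to cytochrome c, and complex IV passes them to oxygen. Complexes I, III and IV pump protons across the inner mitochondrial membrane, and complex V, the ATP synthase, uses the proton gradient to make ATP. In immune cells the balance between oxidative phosphorylation and glycolysis is a known feature of macrophage activation and of T cell state.

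RNA of 3 sorted cell subsets was sequenced, with 1 library each, so that no value below has a replicate check and no p-value is given. The mice were BALB/c and carried tumors grown from cells injected into the kidney, which the labels call Renca, a mouse renal cell carcinoma line, and the study's text for the sequenced cells calls Renca Ch+L+, a derivative line with Cherry and luciferase. M1 (sorted as F4/80 int, CD11b hi) and M2 (F4/80 hi, CD11b int) macrophages came, per the labels, from 30 pooled tumors and CD4 T cells (TCRβ+, CD4+) from 4 pooled spleens of tumor-bearing mice, although another label field places the CD4 T cells in tumors. The labels give both day 14 and day 16 for the harvest. All 3 libraries came from tumor-bearing mice, and organ differs with cell subset between the macrophages and the spleen T cells, so that these cannot be told apart.

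Markers of cell subsets went against the labels of 2 columns, and each library is therefore named by its label only. The library labelled M2 had the highest level of each of 20 T cell genes, with a median of 106 FPKM, 0.169 in the library labelled M1 and 0.130 in the library labelled CD4. The 14 measured genes of a macrophage list were all lower in the library labelled M2, with medians of 17.4, 247 and 391 FPKM in the libraries labelled M2, M1 and CD4. FPKM counts fragments per 1000 bases of transcript and per 1000000 mapped fragments, and it is the scale of every level below. Lists of B cell, erythroid and neutrophil genes also had their highest medians in the library labelled M2, at 9.19, 5.52 and 5.69 FPKM. The medians of these lists in the other libraries were at most 2.15 FPKM. Single genes were higher, such as the globin gene Hba-a2 at 55, 295 and 49.8 FPKM in the libraries labelled M1, M2 and CD4. The neutrophil list gene Csf3r went the other way, at 19.7, 8.4 and 25.3 FPKM. Medians of kidney epithelium, fibroblast and endothelium lists were at most 2.89 FPKM in any library, but some of their genes were higher. Cdh16 was at 33.4, 87.8 and 46 FPKM and Cdh1 at 48.2, 6.69 and 3.84 FPKM in the libraries labelled M1, M2 and CD4. Pecam1 was at 1.8, 35 and 1.42 FPKM, and the other genes of these lists were at most 10.8 FPKM. The part of these cells in the results below was not tested. In such bulk RNA, fewer cells of a type and less RNA per cell cannot be told apart. Depth was estimated as 59300000 to 72000000 fragments per library, and for the 56 genes at 10 FPKM or more in each library counting error alone came to at most 5.49% of a level.

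Several subunits are encoded by more than 1 gene, and the reads tell such copies apart only where the copies differ. The most similar coding stretches of 51 bases, the length of 1 read, are shown for the pairs of a broadly used and a tissue-restricted isoform. Capitals mark the bases at which the members of a pair differ, and the coordinates are those of build NCBIM37 and include the intron that each stretch spans between exons 2 and 3. Cox6a1 lies on the reverse strand at chr5:115795907-115798595 and the muscle isoform Cox6a2 on the reverse strand at chr7:135349298-135349435, with 8 differing bases.
Cox6a1: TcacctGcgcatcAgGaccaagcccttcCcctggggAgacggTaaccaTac
Cox6a2: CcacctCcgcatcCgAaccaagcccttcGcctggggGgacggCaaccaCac

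Ndufa4 (reverse strand, chr6:11855213-11856020) and Ndufa4l2 (forward strand, chr10:126952543-126953370) were the closest pair, with 5 differing bases. Cox7a2 (reverse strand, chr9:79604133-79606311) and the muscle isoform Cox7a1 (forward strand, chr7:30970176-30970329) had 13.
Ndufa4: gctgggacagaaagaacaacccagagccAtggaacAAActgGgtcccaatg
Ndufa4l2: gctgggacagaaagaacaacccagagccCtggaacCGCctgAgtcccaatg
Cox7a2: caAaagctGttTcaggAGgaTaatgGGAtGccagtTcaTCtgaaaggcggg
Cox7a1: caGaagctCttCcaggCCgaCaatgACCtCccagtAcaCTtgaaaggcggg

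Atp5g1, Atp5g2 and Atp5g3 encode the same mature protein, subunit c of the rotor ring of complex V, and their most similar stretch lies in exon 5 of each, on the reverse strand. It is at chr11:95934481-95934531 for Atp5g1, chr15:102493508-102493558 for Atp5g2 and chr2:73746713-73746763 for Atp5g3. Of its 51 bases 11 are not the same in all 3 genes, and these are in capitals.
Atp5g1: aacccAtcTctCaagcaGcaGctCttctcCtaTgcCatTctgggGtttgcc
Atp5g2: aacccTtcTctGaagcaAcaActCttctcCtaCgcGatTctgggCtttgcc
Atp5g3: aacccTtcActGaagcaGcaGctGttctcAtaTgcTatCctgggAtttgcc

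Since the members were compared as a group, their promoters were also searched for motifs of factors known to bind promoters of mitochondrial genes. Of 85 symbols, 69 had a RefSeq promoter of 250 bases before to 50 after the start (build GRCm38.p6), and both strands were searched. The NRF1 motif (GCGCA, any base, GCGC) was in 17 of 69 (24.6%), beside 1254 of 17491 protein-coding genes (7.17%). The ETS motif CCGGAAGT was in 5 of 69 (7.25%), beside 5.69% of all, and the YY1 motif (AA, any base, ATGGCGGC) in 4 of 69 (5.8%), beside 1.63%. The motifs do not contain one another, and a match describes the letters only. Only some of the 17 members with the NRF1 motif are shown, so a member left out here does not thereby lack it. For 4 members that hold it upstream of the start, the NRF1 match is shown in capitals within 40 bases. It began 117 bases before the start of Cox6a1 (reverse strand, chr5:115349051-115349090), 79 before Sdhd (reverse strand, chr9:50603904-50603943), 55 before Sdha (reverse strand, chr13:74350271-74350310) and 42 before Atp5g2 (reverse strand, chr15:102671065-102671104).
Cox6a1: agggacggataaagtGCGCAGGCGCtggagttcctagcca
Sdhd: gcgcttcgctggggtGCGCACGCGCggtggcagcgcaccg
Sdha: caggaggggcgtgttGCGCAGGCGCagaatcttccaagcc
Atp5g2: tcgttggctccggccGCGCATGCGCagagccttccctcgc

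The subunit genes were lower in the library labelled M2 than in the others. Their median level was 39.3 FPKM in the library labelled M1, 37.9 in that labelled CD4 and 27.5 in that labelled M2, and their summed level was 4630, 4255 and 3416 FPKM in the same order. Of the 85 genes, 77 reached 1 FPKM in at least 1 library and 56 reached 10 FPKM in each. Of these 56 genes, 44 (78.6%) had their lowest level in the library labelled M2, beside 45.9% of the 3697 protein-coding genes at 10 FPKM or more in each library. The highest level was in the library labelled M1 for 40 of the 56, in that labelled CD4 for 13 and in that labelled M2 for 3.

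**Figure D1:**
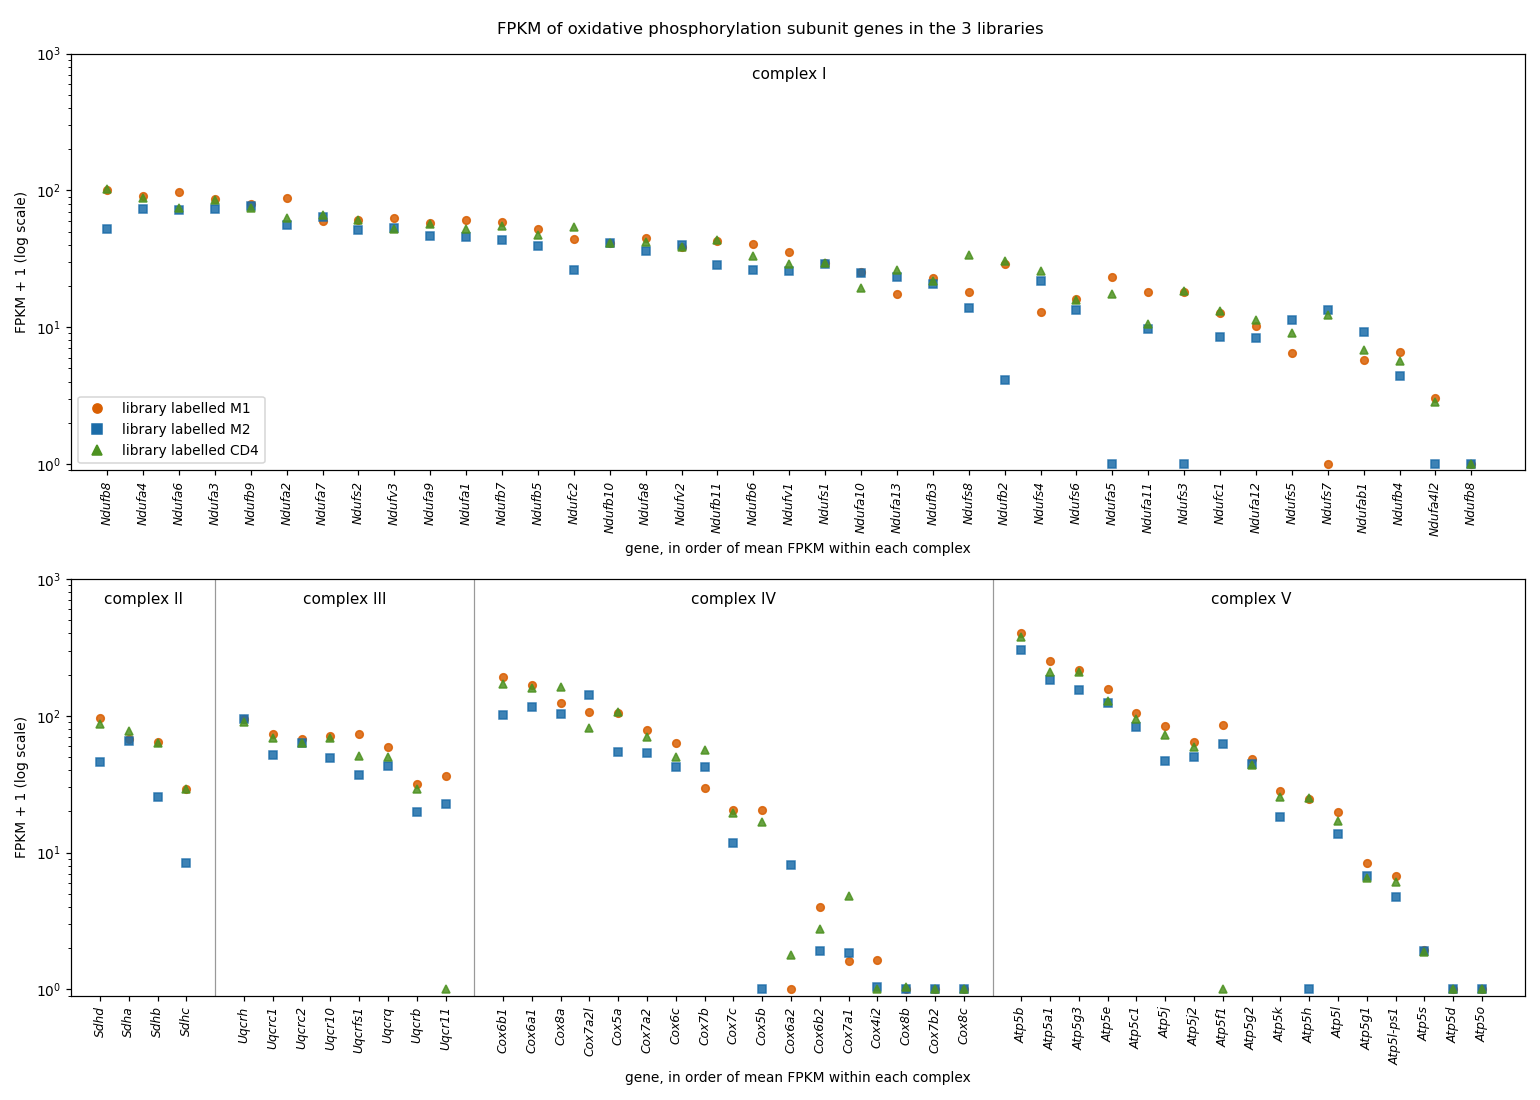
Level of each of the 85 subunit genes in the 3 libraries, as FPKM + 1 on a log axis, with genes in order of mean level within each complex and 1 symbol per library. Blue squares (library labelled M2) lie below the other symbols for most genes above 10 FPKM, and symbols on the lowest line are levels listed at 0.

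Ratios were taken on the log2(FPKM + 1) scale, which understates the change of low genes, and the 3 comparisons share libraries. Between the libraries labelled M2 and M1, 49 of the 56 genes (87.5%) had a ratio below 1, beside 56.0% of all genes at the same level. The median log2 ratio of the 56 was -0.40, which is a fold of 0.756, and that of all genes was -0.08. Between the libraries labelled M2 and CD4, 48 of 56 (85.7%) were below 1, beside 52.0% of all, with a median log2 ratio of -0.26 and a fold of 0.836. The median of all genes was -0.02. Between the libraries labelled CD4 and M1, 42 of 56 (75%) were below 1, beside 56.9% of all, with a median log2 ratio of -0.09 and a fold of 0.938. The median of all genes was -0.05. The lower level in the library labelled M2 was thus common to most of the 56 genes, and the log2 ratios of M2 over M1 ranged from -1.33 to 0.74. Over all 85 genes, low ones included, the median log2 ratios were -0.41, -0.25 and -0.07 in the same order of comparisons, beside 0.08, 0.08 and 0 over the 11103 protein-coding genes at 1 FPKM or more in any library.

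Few genes reached a log2 ratio of 1 in size, which is the threshold for calling a gene higher or lower. In the library labelled M2 against M1, 2 members were called higher, beside 15.6% of the 11103 genes, and 11 lower, beside 15.0%. Against the library labelled CD4, 3 were called higher, beside 15.7% of all, and 11 lower, beside 16.1%. In the library labelled CD4 against M1, 3 were called higher, beside 6.61% of all, and 2 lower, beside 6.79%. These counts of lower members, 11 of 85 in both comparisons of the library labelled M2, are near the shares of all genes. With all rows summed, incomplete rows included, the lower calls stayed at 11 against M1, beside 13.7% of all genes, and were 7 against CD4, beside 14.8%. In all, 19 members were called in any comparison, and 9 of them had a level of 0 in a library. A level of 0 can be a failed estimate here, because Atp5o and Atp5d, which encode subunits that every ATP synthase holds, were listed at 0 in all 3 libraries.

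**Figure D2:**
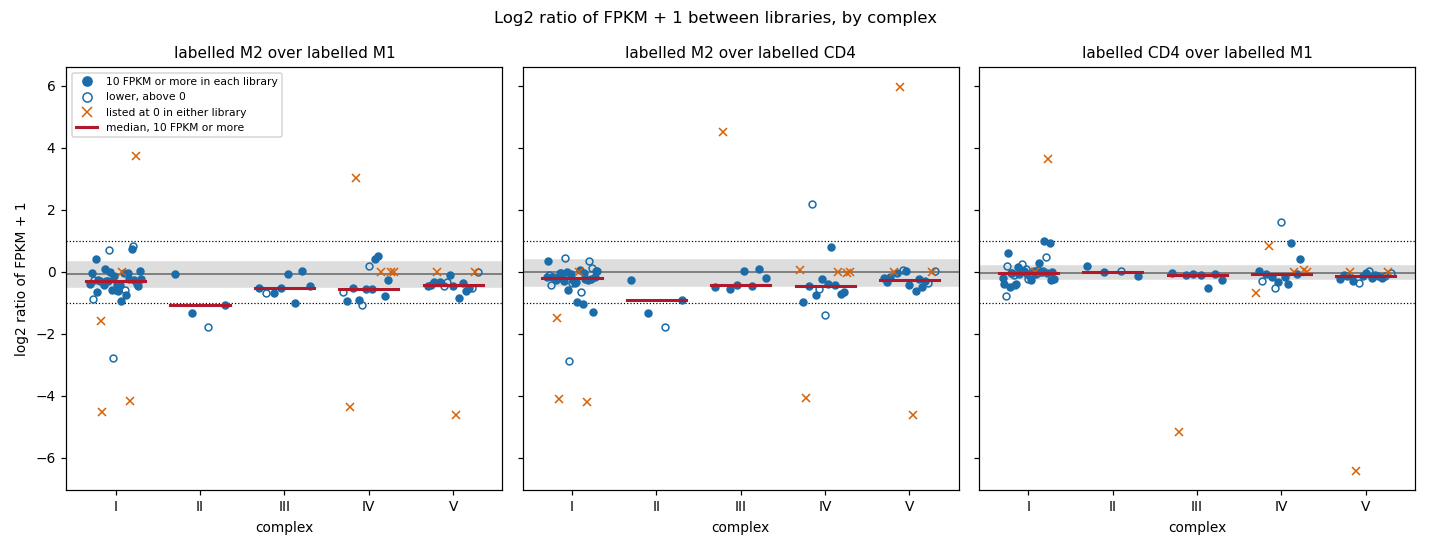
Log2 ratio of FPKM + 1 of each subunit gene by complex, for the library labelled M2 over M1, M2 over CD4 and CD4 over M1. Red bars are medians of genes at 10 FPKM or more in each library, the grey line and band are the median and middle range (between the quartiles) of 3697 protein-coding genes at that level, and dotted lines mark the log2 ratio of 1 in each direction. In both panels of the library labelled M2 every red bar lies below the grey line.

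The table also held rows other than the first complete row of an identifier, among them rows that gave a value in only 1 or 2 columns. Of 381 rows of the members, 279 were used by the rule and 102 were not, and 88 of the unused rows held a level above 0. The 102 unused rows belonged to 40 members. With every row summed, 63 members reached 10 FPKM in each library, and the ratio of the libraries labelled M2 and M1 was below 1 for 56 of them, beside 51.2% of all genes. For M2 against CD4 it was below 1 for 49 of 63, beside 47.6%, and for CD4 against M1 for 50 of 63, beside 56.7%. The medians were -0.44, -0.25 and -0.10 on the log2 scale. The direction of the group therefore did not rest on the choice of rows, while many calls of single genes did, as given with each gene below.

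**Figure D3:**
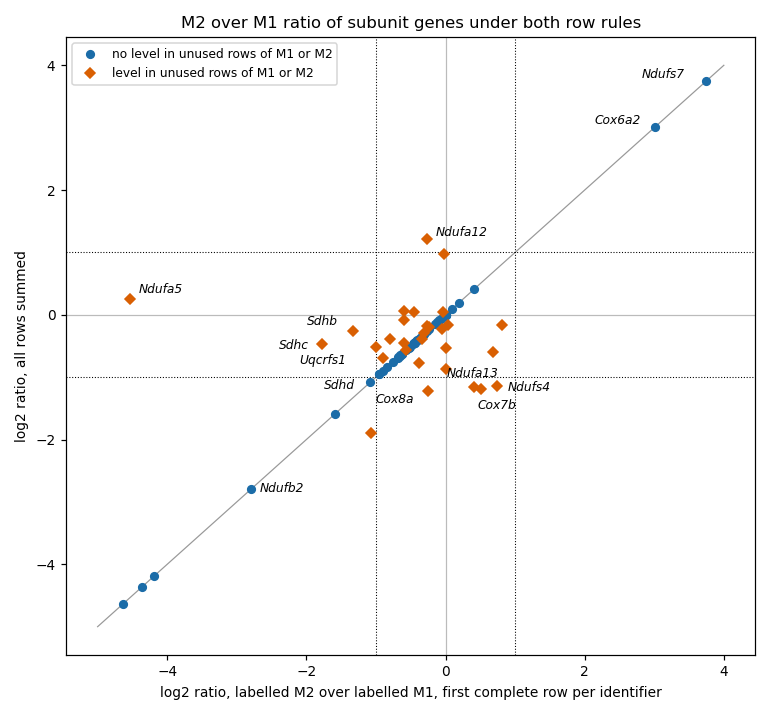
Log2 ratio of FPKM + 1 between the libraries labelled M2 and M1 for each subunit gene, from the first complete row per identifier (horizontal axis) and from all rows summed (vertical axis), with the diagonal of equal values and dotted lines at a log2 ratio of 1 in each direction. Ndufa5, Sdhc and Sdhb are called lower from complete rows only, while Ndufb2 and Sdhd lie on the diagonal.

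Complex I, which oxidizes NADH, had 27 of its 39 genes at 10 FPKM or more in each library, and 23 of the 27 were lower in the library labelled M2 than in that labelled M1. Their median log2 ratio was -0.31 for M2 against M1, -0.21 for M2 against CD4 and -0.04 for CD4 against M1. The log2 ratios of M2 over M1 ranged from -0.96 to 0.74, and the 4 above 0 were those of Ndufa7, Ndufa13, Ndufs4 and Ndufv2. Ndufb8, an accessory subunit of the membrane arm and the complex I gene with the highest mean level, was at 100.5 FPKM in the library labelled M1, 51.3 in that labelled M2 and 101.5 in that labelled CD4. The library labelled M2 was far below both others, which were level, with log2 ratios of -0.96 and -0.97. Ndufa4, now known to associate with complex IV, was at 90.5, 72.5 and 86.9 FPKM in the libraries labelled M1, M2 and CD4, and the accessory subunit Ndufa6 at 97.2, 71.1 and 73.5 FPKM. Ndufa4 was lowest in the library labelled M2 and Ndufa6 was lower in both M2 and CD4 than in M1.

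Core subunits of complex I differed in pattern among themselves. Ndufv1, which binds NADH, was at 34.3, 24.7 and 28.1 FPKM in the libraries labelled M1, M2 and CD4, and with all rows summed its log2 ratio of M2 over M1 moved from -0.46 to 0.05. Ndufs1, the largest iron-sulfur subunit, was at 28.5, 27.9 and 28.6 FPKM, nearly level. Not every subunit was thus clearly lower in the library labelled M2. Ndufb10, an accessory subunit, was also nearly level at 40.2, 40 and 40.6 FPKM.

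Ndufb2 had the largest difference among complex I genes above 0 in each library. This accessory subunit of the membrane arm (chromosome 6, 39542573 to 39553381) was at 27.8 FPKM in the library labelled M1, 3.14 in that labelled M2 and 29.7 in that labelled CD4. The library labelled M2 stood alone at the low level, with log2 ratios of -2.80 and -2.89, and all rows gave the same values. Ndufc2, another accessory subunit, was at 43.5, 25.3 and 53.1 FPKM in the libraries labelled M1, M2 and CD4 and was called lower in M2 than in CD4 only (log2 ratio -1.04, and -0.76 against M1).

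Several complex I calls depended on the rows. Ndufs8, a core iron-sulfur subunit, was at 17, 12.7 and 32.9 FPKM in the libraries labelled M1, M2 and CD4, with log2 ratios of -1.30 for M2 over CD4 from complete rows and -0.27 from all rows. Ndufs4, an accessory subunit needed for a stable complex I, was at 12, 20.7 and 25 FPKM, with a log2 ratio of CD4 over M1 of 1.002. With all rows it was highest in the library labelled M1, at 47 FPKM, and that log2 ratio became -0.89. Ndufa13 turned in the same way, from 16.4 FPKM in the library labelled M1 and 22.2 in that labelled M2 to a log2 ratio of M2 over M1 of -1.16 with all rows. Ndufa12 turned the other way, from a log2 ratio of -0.27 to 1.21. Ndufs5 and Ndufab1, the mitochondrial acyl carrier protein, were under 10 FPKM in at least 1 library, with log2 ratios of M2 over M1 of 0.82 and 0.68 from complete rows and -0.17 and -0.60 from all rows. Ndufa5, at 22.3, 0 and 16.4 FPKM from complete rows, had 26.7 FPKM in unused rows for the library labelled M2. Its log2 ratio of M2 over M1 moved from -4.54 to 0.25.

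Complex II, which oxidizes succinate and is also an enzyme of the citric acid cycle, has 4 subunits, and from complete rows all were lower in the library labelled M2 than in both others. Sdha, the catalytic flavoprotein, was at 67.1 FPKM in the library labelled M1, 64.1 in that labelled M2 and 76.8 in that labelled CD4. Sdhb, the iron-sulfur subunit, was at 62.9, 24.4 and 62.6 FPKM, and the membrane anchors Sdhc and Sdhd were at 28, 7.44 and 28.3 FPKM and at 96, 44.7 and 86.1 FPKM in the same order. From these rows the libraries labelled M1 and CD4 were close to each other for every subunit, with log2 ratios from -0.15 to 0.19. In the library labelled M2 against M1, Sdha differed little (log2 ratio -0.07) while Sdhd (-1.08), Sdhb (-1.33) and Sdhc (-1.78) were called lower. Against the library labelled CD4, Sdhb (-1.32) and Sdhc (-1.80) were called lower and Sdhd was at -0.93.

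With all rows summed, Sdhb was at 62.9, 52.4 and 62.6 FPKM in the libraries labelled M1, M2 and CD4, and Sdhc at 67.4, 48.3 and 28.3 FPKM. Neither was then called in a comparison of the library labelled M2, and for Sdhc the log2 ratio of M2 over CD4 turned from -1.80 to 0.75, and Sdhc was called lower in the library labelled CD4 than in that labelled M1, with a log2 ratio of -1.22. Sdhd (chromosome 9, 50404443 to 50411954) has 1 transcript and no unused level, and its value was the same under both rules. The median log2 ratio of M2 over M1 over the 4 genes was -1.21 from complete rows and -0.37 from all rows.

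Complex III, the cytochrome bc1 complex, had 7 of its 8 genes at 10 FPKM or more in each library, and 6 of the 7 were lower in the library labelled M2 than in that labelled M1. The median log2 ratio was -0.52 for M2 against M1, -0.43 for M2 against CD4 and -0.10 for CD4 against M1. The core proteins Uqcrc1 and Uqcrc2 were at 72.9, 50.7 and 68.4 FPKM and at 66.7, 62.7 and 62.1 FPKM in the libraries labelled M1, M2 and CD4. Uqcrc1 was lowest in the library labelled M2, while Uqcrc2 was nearly level between M2 and CD4.

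Uqcrfs1, the Rieske iron-sulfur protein, was at 72.7, 35.8 and 49.8 FPKM in the libraries labelled M1, M2 and CD4, and was called lower in M2 than in M1 with a log2 ratio of -1.004, which became -0.52 with all rows. Uqcrh, the hinge protein, was level at 93.6, 94.2 and 89.6 FPKM from complete rows, and at 239, 130 and 89.6 FPKM from all rows. The order of the libraries for Uqcrh thus depended on an unused row of 145 FPKM in the library labelled M1. Uqcr11 was at 35.3, 21.6 and 0 FPKM, and the value of 0 in the library labelled CD4 gave calls in both comparisons with that library. No unused row held a level for it, and 38.5% of its 51-base windows occurred elsewhere in the genome.

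Complex IV, cytochrome c oxidase, had 9 of its 17 genes at 10 FPKM or more in each library. The median log2 ratio of these 9 was -0.56 for M2 against M1, -0.46 for M2 against CD4 and -0.08 for CD4 against M1. Cox6b1, which faces the intermembrane space, was at 190 FPKM in the library labelled M1, 101 in that labelled M2 and 169.5 in that labelled CD4. Cox5a, which binds the core of the enzyme, was at 104, 53.2 and 106 FPKM in these libraries. Both were lowest in the library labelled M2, with log2 ratios of M2 over M1 of -0.91 and -0.95, just under the threshold.

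Cox6a1 was at 167, 115 and 158 FPKM in the libraries labelled M1, M2 and CD4, and Cox8a at 122, 102 and 162 FPKM. Cox8a had an unused row of 118 FPKM in the library labelled M1, and its log2 ratio of M2 over M1 moved from -0.26 to -1.22 with all rows. Cox7b was at 28.5, 40.9 and 55.6 FPKM from complete rows, with an unused 66.3 FPKM in the library labelled M1, and its log2 ratio of M2 over M1 turned from 0.51 to -1.19. Cox7a2l, which is known for joining complexes III and IV in supercomplexes, was among the 7 of the 56 genes that were above 0 for M2 over M1. It was at 106 FPKM in the library labelled M1, 141 in that labelled M2 and 80.6 in that labelled CD4, highest in the library labelled M2, with log2 ratios of 0.41 and 0.80. With all rows the library labelled CD4 was at 99.6 FPKM, still the lowest. Uqcrh and Ndufv2 were also highest in the library labelled M2 from complete rows, by small margins. Of the 51-base windows of Cox7a2l, 58.7% occurred elsewhere in the genome.

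The tissue-restricted isoforms were low in all libraries. Cox6a2, the heart and skeletal muscle isoform of subunit 6a (chromosome 7, 135348950 to 135349880), was listed at 0 in the library labelled M1 and was at 7.09 FPKM in that labelled M2 and 0.785 in that labelled CD4. It was called higher in the library labelled M2 in both comparisons, and none of its 51-base windows occurred elsewhere. Cox7a1, the muscle isoform of subunit 7a, was at 0.612, 0.843 and 3.84 FPKM in the libraries labelled M1, M2 and CD4 and was highest in the library labelled CD4, with log2 ratios of CD4 over M1 of 1.59 and of M2 over CD4 of -1.39. Cox6b2, a testis isoform, was at 2.98, 0.892 and 1.78 FPKM, called lower in M2 than in M1 with a log2 ratio of -1.07. Both calls were also made with all rows.

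The other isoforms were close to 0. Ndufa4l2, a gene known to rise in hypoxia, was at 2.02, 0 and 1.82 FPKM in the libraries labelled M1, M2 and CD4, and Cox4i2, an isoform of subunit 4 described in lung and hypoxia, at 0.629, 0.0389 and 0 FPKM. Unused rows held 0.831 FPKM of Cox4i2 in the library labelled CD4, which with all rows was the highest. Cox8b was listed above 0 only in the library labelled CD4, at 0.0339 FPKM, and Cox7b2 and Cox8c were listed at 0 in all 3. Ndufa4, the counterpart of Ndufa4l2, was far higher in every library, and so was Cox7a2, the counterpart of Cox7a1, at 77.6, 52.2 and 69.3 FPKM.

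Complex V, the ATP synthase, had 10 genes at 10 FPKM or more in each library. From complete rows all 10 were lower in the library labelled M2 than in that labelled M1, 9 of 10 were lower in M2 than in CD4, and all 10 were lower in CD4 than in M1. The medians were -0.44 for M2 against M1, -0.29 for M2 against CD4 and -0.15 for CD4 against M1 on the log2 scale. Atp5b, the catalytic beta subunit (chromosome 10, 127520329 to 127527447), had the highest level of all members, at 404 FPKM in the library labelled M1, 301 in that labelled M2 and 378 in that labelled CD4. Atp5a1, the alpha subunit, was at 249, 182 and 209 FPKM in these libraries. Both were lowest in the library labelled M2, and their log2 ratios of M2 over M1 were alike at -0.42 and -0.45. Atp5a1 had an unused row of 76.3 FPKM in the library labelled CD4, and with all rows its log2 ratio of CD4 over M1 turned from -0.25 to 0.20. The gamma subunit Atp5c1 and the epsilon subunit Atp5e, both of the central stalk, were at 104, 82.5 and 94.1 FPKM and at 157, 124 and 127 FPKM in the libraries labelled M1, M2 and CD4. Atp5j, coupling factor 6 of the peripheral stalk, was at 82.6, 45.8 and 71.4 FPKM and had the lowest log2 ratio of M2 over M1 of the 10 genes, -0.84. The other 9 lay above it, up to -0.12 for Atp5g2.

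The 3 genes of subunit c differed in level and not in direction between the libraries labelled M2 and M1. Atp5g3 was at 213.7, 154.5 and 206.5 FPKM in the libraries labelled M1, M2 and CD4, Atp5g2 at 47.5, 43.7 and 42.8 FPKM and Atp5g1 at 7.46, 5.75 and 5.49 FPKM. With all rows Atp5g1 was at 9.23 FPKM in the library labelled CD4, the highest of the 3. Atp5g3 thus gave most of the subunit c transcript in each library. The levels of Atp5g1 and Atp5g2 are uncertain, since 86.6% and 100% of their 51-base windows occurred elsewhere in the genome, against 0% for Atp5g3.

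Among the subunits of the stator, Atp5f1, subunit b, was at 84.6, 61.6 and 0 FPKM in the libraries labelled M1, M2 and CD4, but an unused row held 74.1 FPKM in the library labelled CD4, and neither of its calls was made with all rows. Atp5h, subunit d, was at 23.8, 0 and 23.9 FPKM with no unused level, and 67.1% of its windows occurred elsewhere. The same pattern of a 0 only in the library labelled M2 was found for Cox5b, a zinc-binding subunit of complex IV, at 19.6, 0 and 15.8 FPKM, and for Ndufs3, a core subunit of complex I, at 17.2, 0 and 17.4 FPKM. Ndufs7, another core subunit, was at 0, 12.4 and 11.4 FPKM, with the 0 in the library labelled M1. Ndufb8 has a second gene identifier (ENSMUSG00000091471), listed at 0 in each library. Of the 77 genes at 1 FPKM or more in any library, 9 were listed at 0 in 1 or 2 libraries, and the median share of their windows found elsewhere was 23.4%, beside 0.883% for the other 68. The part of shared sequence in these values was not tested.

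The ratios were also set beside transcript length, because many members are short and FPKM of short transcripts depends on a length correction. Over the 56 genes at 10 FPKM or more, Spearman's correlation of length with the log2 ratio was 0.22 for M2 over M1, 0.09 for M2 over CD4 and 0.13 for CD4 over M1, a description over genes of shared libraries. The 28 genes under the median length of 724 bases had a median log2 ratio of M2 over M1 of -0.50 and the 28 longer ones of -0.32. Both length classes were thus below 0. Among 31 genes with under 1% of windows elsewhere in the genome, 29 were lower in the library labelled M2 than in that labelled M1, with a median of -0.40, 26 were lower than in the library labelled CD4, with a median of -0.23, and 23 were lower in the library labelled CD4 than in M1, with a median of -0.09.

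Other mitochondrial genes were compared in the same way. The 13 subunits encoded by mitochondrial DNA had no row with a value for all 3 libraries and are not analysed here. Over all genes, 15.6% were called higher and 15.0% lower in M2 over M1, and 15.7% and 16.1% in M2 over CD4. From complete rows none of 13 citric acid cycle genes was called, with Suclg1 listed at 0 in all 3 libraries. Their median log2 ratios were -0.23 for M2 over M1 and -0.06 for M2 over CD4. With all rows these medians were -0.25 and -0.22. Suclg1 was then at 12.13, 0 and 15.15 FPKM in the libraries labelled M1, M2 and CD4. Fh1 moved from 26.2, 23.4 and 38.7 FPKM to 44.5, 23.4 and 57.1 FPKM. The lack of calls thus holds for complete rows only. Of 77 mitochondrial ribosomal protein genes, 3 were called higher and none lower in M2 over M1 from complete rows, under those shares. In M2 over CD4, 4 were called higher and none lower from these rows, also under them. The medians were -0.18 and -0.12 from complete rows, and -0.09 and -0.006 from all rows. Genes called higher from complete rows were low or listed at 0 in the other library. The median for CD4 over M1 from these rows was -0.06, with 1 gene called lower, beside 6.79% of all genes. Mrps25 was at 0, 6.03 and 0 FPKM in the libraries labelled M1, M2 and CD4, Mrpl47 at 0, 2.05 and 0 FPKM and Mrpl1 at 0, 1.19 and 0 FPKM. With all rows, Mrpl1 was highest in the library labelled M1, at 4.6 FPKM. Mrpl42 was at 10.1, 16.8 and 0 FPKM from complete rows and at 34.6, 38.3 and 34.4 FPKM from all rows. Genes not called from complete rows also changed with all rows, in both directions. Mrpl28 was then at 23.7, 972.5 and 33.1 FPKM and Mrpl39 at 7.03, 69.1 and 11.9 FPKM, highest in the library labelled M2. Mrps28 was at 82.1, 20.7 and 13.2 FPKM, highest in the library labelled M1.

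In comparisons of the library labelled M2, medians of assembly factors and regulators were above 0, unlike those of the subunits. Of 29 measured assembly factors, 17 were higher and 7 lower in the library labelled M2 than in that labelled M1. Their median log2 ratio was 0.18, beside 0.08 for all genes at 1 FPKM or more in any library. Of the 29, 3 were called higher and 1 lower, beside 15.6% and 15.0% of all genes. The median for M2 over CD4 was 0.20, beside 0.08 for all genes. Here 1 was called higher and 1 lower, beside 15.7% and 16.1%. Ndufaf3 and Ndufaf4, both needed to build complex I, were at 1.25, 6.56 and 6.37 FPKM and at 1.08, 9.46 and 6.13 FPKM in the libraries labelled M1, M2 and CD4, and were called lower in M1 than in both others. Cox11, a copper chaperone of complex IV, was at 1.74, 5.79 and 0.964 FPKM, highest in the library labelled M2 and called in both of its comparisons, and Cox16 was at 29.6, 0 and 22 FPKM. Of 12 regulators of mitochondrial genes, 10 were above their M1 level in the library labelled M2, and 10 were above their CD4 level. Their median log2 ratios were 0.23 and 0.29, beside 0.08 for all genes in each comparison. Against M1, 1 of the 12 was called higher, beside 15.6% of all genes. Against CD4, 1 was called higher, beside 15.7%. None was called lower in either comparison, beside 15.0% and 16.1%.

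Tfam packages mitochondrial DNA and takes part in starting its transcription. Its level was 13.7 FPKM in the library labelled M1, 26.3 in that labelled M2 and 10.4 in that labelled CD4. Tfam was highest in the library labelled M2, called against CD4 with a log2 ratio of 1.26 and at 0.90 against M1. Tfb2m, a mitochondrial transcription factor, was at 1.69, 4.58 and 3.75 FPKM and was called against M1 with a log2 ratio of 1.05, not with all rows (7.45, 9.05 and 3.75 FPKM). Among 10 electron carriers and related genes, Atpif1 was the called one, beside 15.0% and 16.1% of all genes called lower against M1 and CD4. It encodes the inhibitor of ATP hydrolysis by complex V and was at 94.9, 30.8 and 99.1 FPKM in the libraries labelled M1, M2 and CD4, with log2 ratios of M2 over M1 of -1.59 and of M2 over CD4 of -1.66. Atpif1 was thus lower in the library labelled M2 by more than any of the 10 complex V genes at 10 FPKM or more.

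Some proliferation genes were also lower in the library labelled M2. Of 15 such genes, 5 were called lower in it than in that labelled M1, beside 15.0% of all genes, and 4 lower than in that labelled CD4, beside 16.1%. None was called higher, and Mcm2, Mcm6 and Pcna had log2 ratios of M2 over M1 of 0.10, 0.10 and 0.23. The median log2 ratios of the list were -0.64 and -0.49, and its median level was 33, 18 and 25.7 FPKM in the libraries labelled M1, M2 and CD4. The 5 called against M1 were Aurkb at 22.2, 5.95 and 20.8 FPKM, Bub1 at 11.1, 2.85 and 13.1, Birc5 at 35.4, 12.3 and 37.1, Top2a at 67.3, 24 and 42.5, and Ccnb2 at 23.4, 11 and 25.7 FPKM. These are genes of mitosis and chromosome segregation. Their part in the levels of the subunit genes was not tested.

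**Figure D4:**
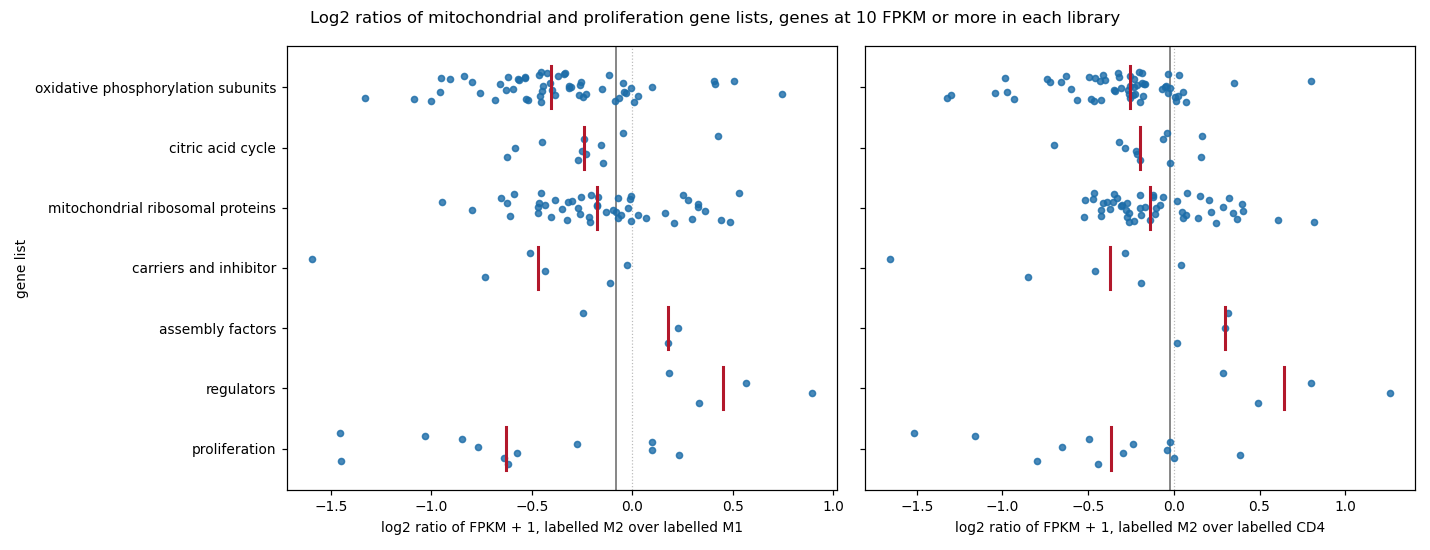
Log2 ratio of FPKM + 1 for the library labelled M2 over M1 (left) and M2 over CD4 (right), for genes of each list at 10 FPKM or more in each library, with 1 point per gene, red bars at list medians and a grey line at the median of 3697 protein-coding genes. The oxidative phosphorylation subunits centre at -0.40 and -0.26, while the few assembly factors (3) and regulators (4) at this level centre above 0.

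Atp5sl, which fits the name rule but belongs to no complex, was at 7.56, 10.4 and 7.54 FPKM in the libraries labelled M1, M2 and CD4. It was highest in the library labelled M2, with a log2 ratio of 0.41 over M1 and 0.42 over CD4.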

How the data were processed

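RNA of 3 sorted mouse cell subsets was sequenced, 1 library each. Per the methods, the authors aligned trimmed paired reads of 51 bases to mm9 with Bowtie 0.12.8 and TopHat 1.4.1, estimated transcript levels with Cufflinks 2.1.0 guided by Ensembl release 67, and deposited them in FPKM as 1 table. The submitters' processing notes name Cuffdiff instead. Of 135070 rows, 10182 had no identifier. Identifiers were joined to the GENCODE M1 annotation of NCBIM37 (mm9), which matched 88278 of 90430 with a complete row.

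For each identifier the first row with values in all 3 columns was used, and transcripts were summed per gene. A gene was called where FPKM + 1 differed at least 2-fold between libraries, a log2 ratio of 1, with no test. The background was protein-coding nuclear genes at 1 FPKM or more in any library. The members and gene lists were chosen with earlier results of these data known. Named genes were the 3 highest of each complex, core subunits, called members, members at 0, tissue-restricted isoforms, Atp5g genes and called list genes. Other genes (Ndufa7, Ndufa12, Ndufa13, Ndufab1, Ndufb10, Ndufs5, Ndufv2, Cox7a2, Cox7a2l, Cox7b, Atp5c1, Atp5e, Atp5j) were named after their values were seen. Sequence windows found elsewhere in the genome were exact matches on both strands of NCBIM37. Depth was estimated from the level of 1 fragment in transcripts of 2500 to 8000 bases. Of the alternatives, 10 were planned and 2 were added after seeing the data. The calculations were tested on simulated data and used Python 3.11.15, numpy 2.4.6, pandas 2.3.3 and matplotlib 3.10.9. Flow cytometry, blots and PCR were not used here.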

Additional observations from a re-analysis of the deposited data

Results flagged for a closer look

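Rows other than the first complete row of each identifier were outside the comparisons. Among them were rows with a value in only 1 or 2 columns. Summed per gene and library, 14 levels in these unused rows were at least 10 FPKM and at least as high as the used level. In the library labelled M1 these were 145 FPKM for Uqcrh, 66.3 for Cox7b, 39.4 for Sdhc, 35.1 for Ndufs4, 34.5 for Ndufa13, 29.7 for Ndufs8 and 12.6 for Ndufab1. In the library labelled M2 they were 40.9 FPKM for Sdhc, 28 for Sdhb, 26.7 for Ndufa5, 17.7 for Ndufa12 and 14.3 for Ndufs8. In the library labelled CD4 they were 74.1 FPKM for Atp5f1 and 13.7 for Ndufab1. The used level was 0 for Ndufa5 in the library labelled M2 and for Atp5f1 in that labelled CD4.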

How the results depend on the processing

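The medians of the members' log2 ratios kept their direction under all 12 alternatives, from -0.459 to -0.284 for M2 over M1, -0.305 to -0.193 for M2 over CD4 and -0.104 to -0.057 for CD4 over M1. They were also set beside the median of genes at 1 FPKM or more in any library. The differences ranged from -0.62 to -0.32, -0.43 to -0.23 and -0.10 to -0.06. Settings limited to members at 10 FPKM or more in each library used this same background. For CD4 over M1 the median of those members was -0.09, beside -0.05 for genes at that level. With all rows it was -0.10, beside -0.05. Counts of called members (13, 14 and 5 in the same order) moved more. They were 8, 9 and 3 with a pseudocount of 10 FPKM, where 7, 7 and 2 were lower beside 6.10%, 6.48% and 2.08% of all genes, 3, 3 and 1 among members at 10 FPKM or more in each library, 6, 2 and 2 with all rows summed at that level, and 6, 7 and 2 without members listed at 0 in either library. The last 2 settings were chosen after seeing the data. For the settings that limit the members by level or by a listed 0, no share over genes under the same limit was taken. Their counts can therefore not be read as few or many. With transcripts of at least 500 bases the CD4 over M1 count was 3. Of these, 2 were higher and 1 lower, beside 6.6% and 6.8% of all genes. Summing all rows over all 85 members changed the split of the CD4 over M1 calls from 3 higher and 2 lower to 2 higher and 4 lower, and that of M2 over CD4 from 3 higher and 11 lower to 3 higher and 7 lower, beside 18.6% and 14.8% of all genes. The limits on level and on a listed 0 removed called members themselves, so lower counts under them were fixed by the limit. For M2 over M1, 5 of the 11 lower calls and 2 of the 2 higher calls had a listed 0. Ndufb2, Sdhc and Cox6b2 were called lower at 3.14, 7.44 and 0.892 FPKM in the library labelled M2. For the other settings the cause of the lower counts was not tested. No paired analysis was possible because each subset had 1 library. Depth sets a counting error of at most 5.49% of a level at 10 FPKM or more.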
